A study of Mus musculus with 4 samples.

Results

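The loci of 6 long noncoding RNA genes, Malat1, Neat1, Pvt1, Sox2ot, Miat and Meg3, were examined for occupancy by Med1, Carm1 and Jmjd1c in mouse neural stem cells. The genes were chosen by name, with earlier results of these data known, and are 6 of the 37273 genes of the GENCODE vM1 annotation of mm9. Shares over all genes are therefore set beside the 6 as background only. A locus was taken as the gene and 20 kb on either side, and every site or enhancer region with at least 1 bp in it was counted. Occupancy was measured by ChIP-seq in the mouse line NS-5, cultured with EGF and FGF2 and otherwise untreated, after fixation with a protein cross-linker followed by formaldehyde. Chromatin was precipitated with an antibody against Med1, Carm1 or Jmjd1c, or with IgG as control, and each antibody had 1 sample, 4 in all. There are therefore no replicates, no spread between samples could be set beside any value below, and no p-values are given.

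Long noncoding RNAs are transcribed by RNA polymerase II but are not translated into protein. Some act as RNAs in the nucleus, such as those that build nuclear bodies. Others lie over enhancers of a neighbouring coding gene, so that a regulatory element inside the RNA gene may serve the neighbour. Med1 is a subunit of Mediator, the complex that connects transcription factors at enhancers with RNA polymerase II at promoters. Carm1 is an arginine methyltransferase and Jmjd1c belongs to a family of histone demethylases. Enhancer regions are those of the deposited table, stretches marked by Ep300 and H3K27ac and joined where close, each with a summed signal of Med1 and IgG that is a read density scaled to mapped reads. A super enhancer (SE) is a region at the top of that table, which is ranked by Med1 minus IgG signal.

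The loci fell into 3 kinds. Malat1, the RNA of nuclear speckles, and Neat1, the scaffold of paraspeckles, each had a very wide Med1 site, over the whole of Malat1 and over the 5′ part of Neat1. Pvt1, the neighbour of Myc, and Sox2ot, in whose intron the stem cell gene Sox2 lies, held sites of all 3 factors deep within the gene. Miat, an RNA best known from neurons, and Meg3, the maternally expressed RNA of the imprinted Dlk1-Dio3 domain, held no site of any factor. A Med1 site was present at 4 of the 6 loci (51.4% of all annotated genes), a Carm1 site at 4 (26.0%) and a Jmjd1c site at 3 (23.5%). Sites of all 3 factors were found at Neat1, Pvt1 and Sox2ot, that is at 3 of 6, and at 4829 of all 37273 genes. No site was present at 2 of 6 loci, against 43.6% of all genes. Among the 3845 genes annotated as lincRNA or processed transcript, 54.9% had a Med1 site, 13.7% had all 3 factors and 38.2% had none. Of the 550 genes of 300 kb or longer, to which Pvt1 and Sox2ot belong, 47.1% had all 3 factors.

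Malat1 and Neat1 are neighbours on chromosome 19, both on the minus strand, with 22037 bp between the Neat1 3′ end and the Malat1 5′ end. Their loci share 6 Med1 sites and 1 SE. Counted once each, the 6 loci held 27 Med1, 16 Carm1 and 11 Jmjd1c sites and 10 enhancer regions, of which 3 were SEs. A region lay at 4 of the 6 loci, against 19.7% of all genes. A site was placed at a TSS (transcription start site) when its midpoint was within 1.5 kb of it, and on this rule 3 of the 6 genes (Malat1, Neat1 and Sox2ot) had a Med1 site at the TSS of at least 1 transcript, against 29.5% of all genes. The labelled cell type was set against markers of several types. A Med1 site at a TSS was present at 42.8% of protein-coding genes, and 7 of 9 markers of neural stem cells and radial glia (such as Vim, Pax6, Sox2 and Fabp7) had one, against 1 of 4 neuronal markers found (Tubb3), 2 of 4 astrocyte markers (S100b and Gfap), 0 of 3 oligodendrocyte markers, 0 of 4 of endothelium and microglia and 0 of 2 of pluripotent cells.

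**Figure D1:**
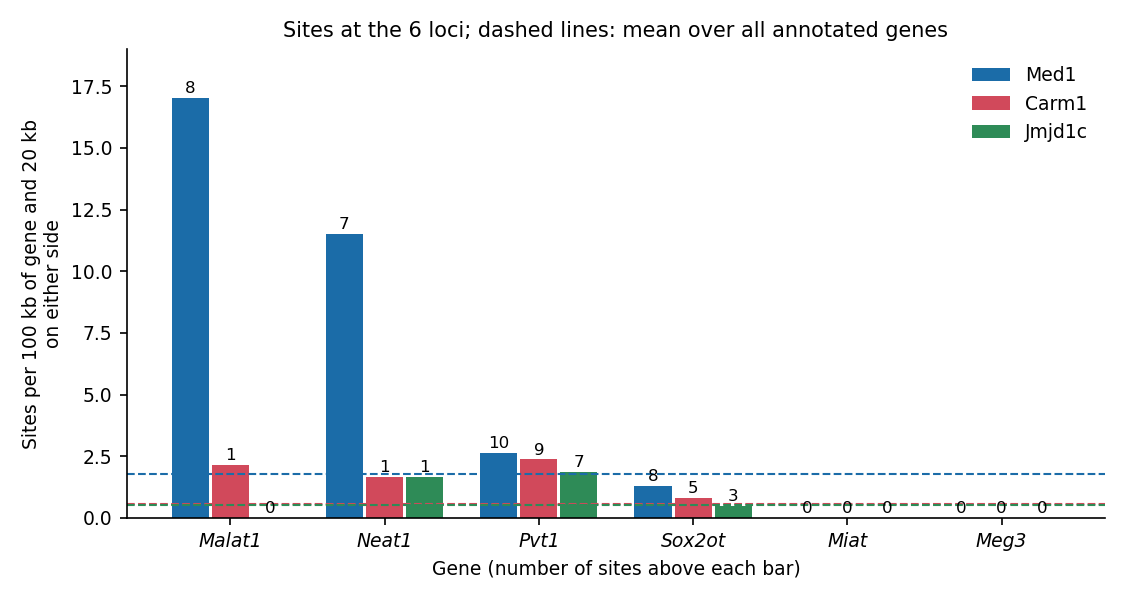
Sites per 100 kb of gene and 20 kb on either side (vertical axis) at the 6 loci (horizontal axis) for Med1 (blue), Carm1 (red) and Jmjd1c (green), with the number of sites above each bar and the mean over all 37273 annotated genes as dashed lines. Malat1 and Neat1 stood at 17.0 and 11.5 Med1 sites per 100 kb against a mean of 1.79, whereas Miat and Meg3 were at 0 for all 3 factors.

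The DNA at 6 of the sites is shown to let the loci be compared base by base. Each is 200 bp of mm9, plus strand, centred on a Carm1 site or, where Carm1 and Jmjd1c overlapped, on the stretch they share. Capitals mark matches, on either strand, to the E-box CAGNTG, bound by basic helix-loop-helix factors, to TTGGC, the core of NFI sites, to ACAAAG or ACAATG, cores of SOX sites, and to ATGCAAAT, the octamer of POU factors.
Malat1, Carm1 inside Med1, chr19:5802385-5802584: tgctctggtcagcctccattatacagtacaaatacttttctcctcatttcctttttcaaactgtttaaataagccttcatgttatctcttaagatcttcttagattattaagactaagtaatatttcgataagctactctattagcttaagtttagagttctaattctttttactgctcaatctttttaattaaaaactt
Neat1, all 3 factors, chr19:5846964-5847163: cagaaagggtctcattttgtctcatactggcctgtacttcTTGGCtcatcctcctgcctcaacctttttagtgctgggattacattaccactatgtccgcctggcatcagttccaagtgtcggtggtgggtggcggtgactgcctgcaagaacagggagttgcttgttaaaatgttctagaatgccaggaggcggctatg
Pvt1, all 3 factors in the SE, chr15:61938205-61938404: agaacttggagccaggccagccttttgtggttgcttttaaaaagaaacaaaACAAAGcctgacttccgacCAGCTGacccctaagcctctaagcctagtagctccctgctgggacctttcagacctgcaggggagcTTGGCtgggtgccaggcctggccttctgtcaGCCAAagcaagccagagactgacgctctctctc
Pvt1, all 3 factors outside the SE, chr15:62041660-62041859: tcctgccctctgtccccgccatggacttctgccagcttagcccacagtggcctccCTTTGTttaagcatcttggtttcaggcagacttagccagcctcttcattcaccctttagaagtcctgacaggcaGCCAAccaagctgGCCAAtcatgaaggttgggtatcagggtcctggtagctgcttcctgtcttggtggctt
Pvt1, Carm1 and Jmjd1c without Med1, chr15:62116322-62116521: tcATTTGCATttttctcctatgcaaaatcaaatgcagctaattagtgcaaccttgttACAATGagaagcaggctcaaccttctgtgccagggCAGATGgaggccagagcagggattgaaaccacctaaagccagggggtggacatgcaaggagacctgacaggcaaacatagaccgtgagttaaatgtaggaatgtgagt
Sox2ot, all 3 factors in the SE, chr3:34342679-34342878: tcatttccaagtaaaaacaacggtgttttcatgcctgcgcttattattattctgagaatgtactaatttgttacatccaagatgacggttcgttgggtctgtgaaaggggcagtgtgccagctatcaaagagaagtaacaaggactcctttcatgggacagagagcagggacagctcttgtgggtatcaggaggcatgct

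The Malat1 stretch was the most AT-rich of 10 such windows at the loci, with 28.5% G and C, and held none of the 4 motifs. The Sox2ot window, at 44.5% G and C, also held none. The 7 Pvt1 windows ranged from 46.5% to 59% G and C, and each held at least 1 of the motifs. Of the 2 Pvt1 windows without a Med1 site, the printed one carried the single octamer of the set together with a SOX core and an E-box, and the other, chr15:62038270-62038469, carried 2 E-boxes and none of the other motifs. Over the 10 windows, E-boxes were present in 4, the NFI core in 5, a SOX core in 3 and the octamer in 1. At 2462 windows shared by the 3 factors anywhere in the genome the shares were 55.8%, 53.9%, 39.1% and 2.80%, and in windows placed every 100 kb they were 36.6%, 27.2%, 28.4% and 1.66%. Not all of the 10 are windows of 3 factors, since the Malat1 window lacks Jmjd1c and 2 Pvt1 windows lack Med1. At 8755 windows on all Carm1 sites the shares were 47.4%, 45.7%, 31.4% and 2.30%. Counts over 10 windows were not tested against any of these backgrounds, and a match to these letters is not evidence that a factor bound there.

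Malat1 (ENSMUSG00000092341.1, chr19:5795690-5802671) is 6982 bp long, and the whole of it lay inside a single Med1 site, chr19:5792184-5805134. This site was 12951 bp wide, the 10th widest of 19956 Med1 sites, whose median width was 1502 bp, and stood at place 22 of the deposited list, whose order the sources used here do not explain. Only 23 Med1 sites (0.115%) were 10 kb or wider, and the Malat1 and Neat1 sites are 2 of them. Of 2214 lincRNA and processed transcript genes of 5 kb or longer, 2 including Malat1 were covered from end to end by Med1 sites, and of 16526 coding genes of that length 1 was. The locus had 8 Med1 sites in all, 17.0 per 100 kb, a higher density than at 99.9% of annotated genes. They ranged from 771 to 12951 bp in width and from place 22 to 14779 in the list, and 4 of the 8 were among the first 5000.

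Carm1 had 1 site at Malat1, chr19:5802353-5802615, inside the wide Med1 site and with its midpoint 187 bp downstream of the 5′ end, in an exon. Its sequence is the first of those printed above. With 2.13 Carm1 sites per 100 kb, the locus had a higher density than 87.9% of annotated genes. A Carm1 site at a TSS was present at 7.80% of all annotated genes. No Jmjd1c site lay at the Malat1 locus, and the nearest one was 43984 bp away, upstream of Neat1. The other 7 Med1 sites overlapped neither Carm1 nor Jmjd1c. By the midpoint of its Med1 site, the annotated 5′ end of Malat1 was not occupied, since the midpoint lies 4012 bp into the gene, but 1 of its 5 transcripts, which starts at a position 1195 bp from the midpoint, was. The site as a whole covered all 5 starts. Gm20417, a processed transcript on the other strand within Malat1, lay under the same site, so the signal cannot be assigned to either gene.

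Neat1 (ENSMUSG00000092274.1, chr19:5824708-5845478) is 20771 bp long and had a Med1 site of 13896 bp, chr19:5838539-5852434, the 8th widest of the list at place 23. The midpoint of this site was 8 bp upstream of the Neat1 5′ end, and it covered 6940 bp or 33.4% of the gene. Coverage of 30% or more was found at 2.12% of lincRNA and processed transcript genes of 5 kb or longer and at 1.59% of coding genes of that length. All 4 annotated transcripts of Neat1 started within 1.5 kb of the midpoint. A Carm1 site, chr19:5846946-5847181, and a Jmjd1c site, chr19:5846655-5847270, overlapped each other within the wide site, with midpoints 1585 and 1484 bp upstream of the 5′ end. The Carm1 site lay wholly within the Jmjd1c site, sharing 236 bp. On the 1.5 kb rule the Carm1 site was at the TSS of Gm9783 and at 0 of the 4 Neat1 starts. The Jmjd1c site was at 2 of the 4 Neat1 starts. At 1.65 sites per 100 kb for each factor, the densities were higher than at 83.2% (Carm1) and 84.8% (Jmjd1c) of annotated genes. The site also reached the 3′ end of the coding gene Frmd8, 4224 bp from the Neat1 5′ end, and Gm9783.

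The width of the Malat1 and Neat1 sites was set against their place in the list. Both are at its very start, yet sites of 10 kb or wider also appeared far down it, so width and place are not the same property. Other Med1 sites among the widest 15 lay over histone gene clusters, the Hoxa cluster and genes that include Spry2, Dusp6 and Scd2, names that were chosen after the widths had been seen. Of the 235 Med1 sites of 5 kb or wider, 51.5% overlapped a Carm1 site and 39.6% a Jmjd1c site, and 85 overlapped neither. Over all 19956 Med1 sites the shares were 23.8% for Carm1, 25.6% for Jmjd1c and 63.5% for neither. No allowance was made for the larger room for overlap in a wider site.

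**Figure D2:**
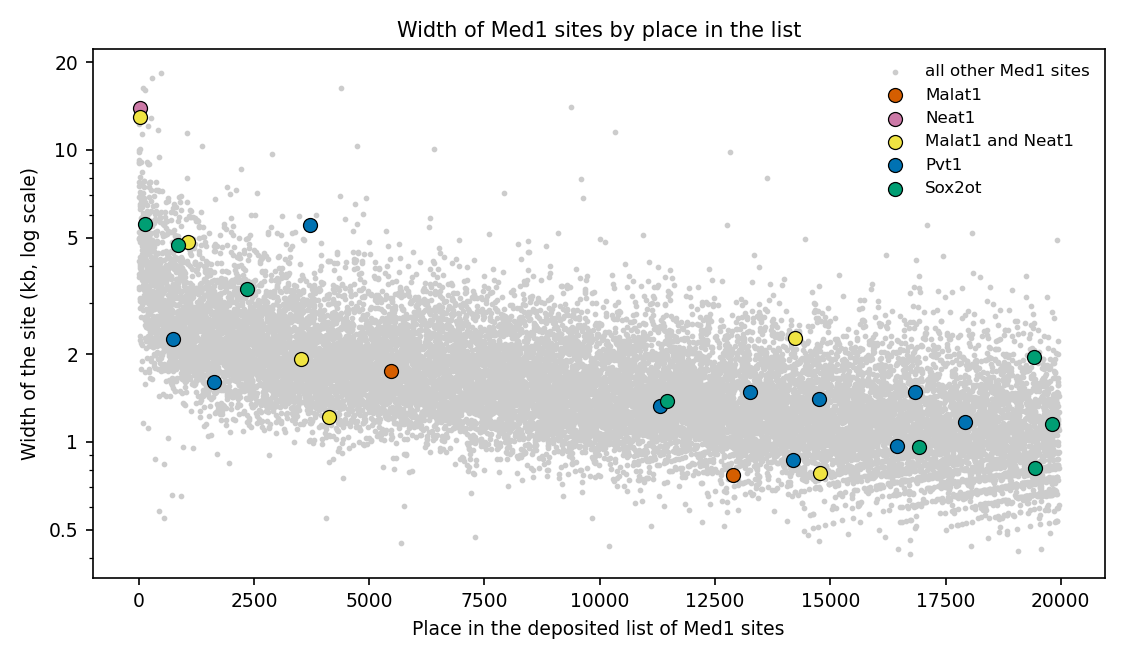
Width in kb (vertical axis, log scale) of each of the 19956 Med1 sites against its place in the deposited list (horizontal axis), with sites at the long noncoding RNA loci in colour and sites within both the Malat1 and the Neat1 locus in yellow. The sites over Malat1 (12951 bp, yellow) and at the Neat1 5′ end (13896 bp, pink) stand at places 22 and 23, whereas 9 of 10 Med1 sites of Pvt1 were between 869 and 2247 bp wide.

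Between the genes lay the SE ranked 71, chr19:5809441-5828444, 19004 bp long, which began 6770 bp upstream of Malat1 and reached 3737 bp into the 3′ part of Neat1. Its summed signal was 10308 for Med1 and 2201 for IgG, a ratio of 4.68 against a median of 3.83 over all SEs. It held 4 Med1 sites, as many or more than which were held by 19.8% of SEs, and they filled 47.8% of its length (median of SEs 35.4%). It held no Carm1 and no Jmjd1c site, a property of 35 SEs in all (7.87%). The widest of its Med1 sites had 4824 bp and the narrowest 783 bp, at places 1064 and 14779 of the list. At least 1 SE was found within 20 kb of 2.03% of all annotated genes and of 4 of the 6 here, 2 of which share this SE.

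A second region, chr19:5793990-5795089, 601 bp past the Malat1 3′ end, had the most concentrated signal of any region at the loci. It was 1100 bp long, with a summed Med1 signal of 3757 and IgG signal of 838. Per kb this was 3415 for Med1, higher than in 99.8% of the 8089 regions, and 762 for IgG, higher than in 99.5% and 6.11 times the median of typical enhancers, the regions that are not SEs, on the chromosome. Both antibodies were thus high here, and their ratio of 4.48 was higher than in 78.2% of regions. By Med1 minus IgG signal per kb it ranked 11 among all regions, although by summed signal it ranked 533 and was not an SE. It lay within the same Med1 site as the Malat1 gene. Whether the high IgG signal contributes to the width of that site was not tested, since IgG was summed over regions only and the regions leave out the sequence around each TSS.

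**Figure D3:**
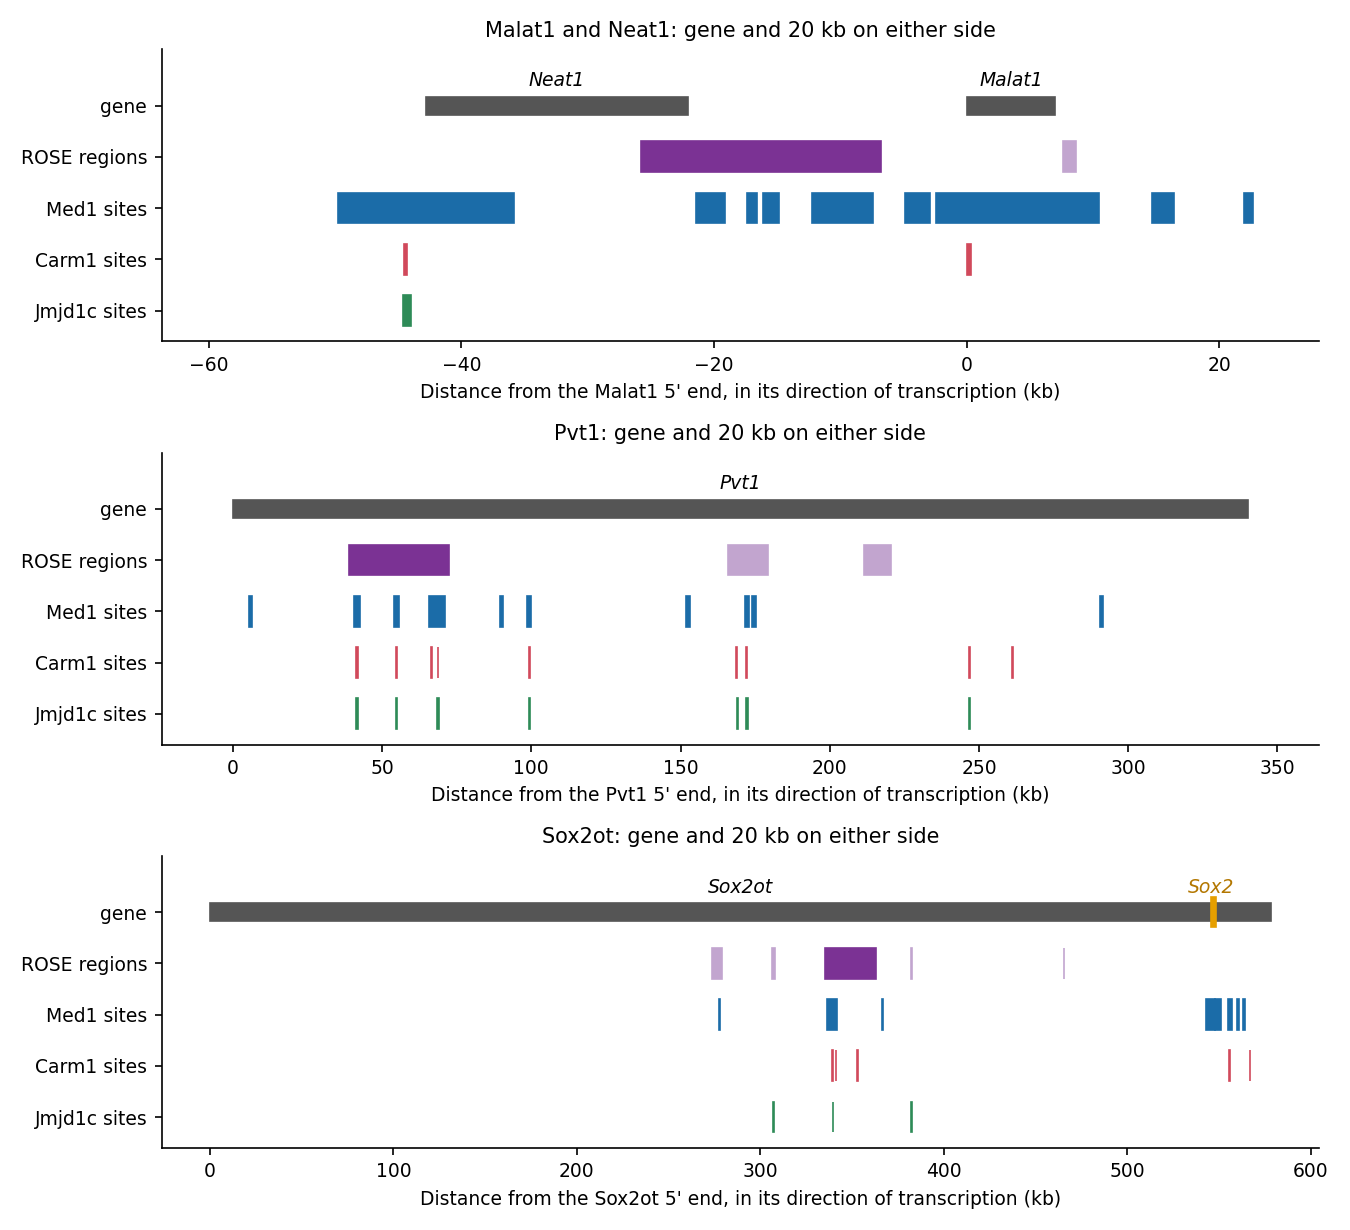
Maps of the Malat1 and Neat1, Pvt1 and Sox2ot loci, with the distance in kb from the 5′ end of Malat1, Pvt1 or Sox2ot along its direction of transcription (horizontal axis), and rows for genes (grey, Sox2 in orange), enhancer regions (dark purple for SEs, light purple for the rest) and Med1, Carm1 and Jmjd1c sites. Features narrower than the line are drawn at the width of the line, and the horizontal scale differs between the maps. The Malat1 gene sits within 1 Med1 site, whereas the SE within Pvt1 begins 38870 bp and that within Sox2ot 335429 bp from the 5′ end.

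Pvt1 (ENSMUSG00000072566.3, chr15:61869542-62209651) spans 340110 bp and held 10 Med1, 9 Carm1 and 7 Jmjd1c sites, all 26 of them with midpoints in introns. None of its 3 annotated transcripts had a site of any factor at its start. The Med1 site nearest to the 5′ end, chr15:61874971-61875839, was 5429 bp away, and the nearest Carm1 and Jmjd1c sites were 41178 and 41164 bp away. The density of 2.63 Med1 sites per 100 kb was higher than at 77.3% of annotated genes, and those of Carm1 (2.37) and Jmjd1c (1.84) were higher than at 91.0% and 86.5%. Of the 550 genes of 300 kb or longer, 14 had more Med1 sites than Pvt1, 2 had more Carm1 sites and 5 had more Jmjd1c sites.

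The 3 factors met in Pvt1 at 5 places. All 7 Jmjd1c sites overlapped a Carm1 site, and 5 of the 7 pairs lay within a Med1 site. The share of all Jmjd1c sites that overlap a Carm1 site is not given here. The pairs took in 7 of the 9 Carm1 sites of Pvt1, whereas 37.5% of all Carm1 sites overlapped a Jmjd1c site. Genome-wide, 3286 Carm1 sites overlapped a Jmjd1c site and 2462 shared stretches touched a Med1 site, so pairs within Med1 were common elsewhere too. The 5 Med1 sites that held both other factors were 50% of the 10, against 12.9% of all Med1 sites. In 4 of the 5 the Carm1 and Jmjd1c midpoints were within 200 bp of the Med1 midpoint, as at chr15:61923677-61925275, where the Carm1 and Jmjd1c midpoints were 7 and 3 bp from that of Med1. The other 5 Med1 sites held neither factor, among them the site nearest to the 5′ end. Of the 2 pairs without Med1, one at chr15:62037989-62038388 (Carm1) had 39 bp in common and one at chr15:62116329-62116564 (Carm1) had 186 bp. The last Carm1 site, chr15:62130758-62130993, overlapped no other site.

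Pvt1 contained 3 enhancer regions that differed in signal. The SE ranked 29, 33491 bp long, had a ratio of Med1 to IgG signal of 3.95. Its IgG signal of 119 per kb was below the median of 171 for typical enhancers on chromosome 15. Its Med1 signal of 469 per kb was near the median of 446 over all regions of that chromosome. Both antibodies were high on chromosome 15, since the medians over all regions of the genome were 366 for Med1 and 132 for IgG, against 446 and 173. With Med1 minus IgG signal divided by the median of 171, the SE ranked 52. The second region, chr15:62035462-62048869, summed to 6811 for Med1 and 3786 for IgG, a ratio of 1.80 that was higher than in 20.3% of regions. Its IgG signal was 282 per kb, 1.65 times the median of typical enhancers on the chromosome, yet it held 2 sites of each factor. It ranked 496 after the subtraction of IgG and 230 by Med1 signal alone, so it was within the range of SE ranks in the second ranking only. With the division by the chromosome median its rank was 744. The third, chr15:62080913-62089990, summed to 1912 for Med1 and 899.5 for IgG, a ratio of 2.13, and held no site. Of the sites within the SE, the widest Med1 site had 5511 bp and stood at place 3711, while a site of 2247 bp stood at place 740.

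Myc, the oncogene whose TSS is 52596 bp from the Pvt1 5′ end, lay outside the locus. It had Med1 sites of 7281 and 2513 bp over and next to the gene and neither a Carm1 nor a Jmjd1c site within 1.5 kb. The study names the SE that lies in the Pvt gene as that of Myc, and calls the Pvt gene inactive in these cells.

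Sox2ot (ENSMUSG00000090828.2, chr3:34003360-34581541) is the longest of the genes at 578182 bp, with 16 annotated transcripts. It held 8 Med1, 5 Carm1 and 3 Jmjd1c sites, all with midpoints in introns. The density of 1.29 Med1 sites per 100 kb was higher than at 55.5% of annotated genes, and among the 550 long genes 27 had more Med1, 20 more Carm1 and 75 more Jmjd1c sites. The first enhancer region began 273573 bp from the 5′ end, and the first Med1 site had its midpoint 277759 bp from it. Of the 16 transcript starts, 1 (Sox2ot-004, the last along the gene) had a Med1 site, with a midpoint 620 bp away, and none had a Carm1 or Jmjd1c site.

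The sites of Sox2ot stood in 2 groups. In the middle of the gene was the SE ranked 109, 27370 bp long, whose Med1 signal of 363 per kb was higher than in 49.4% of all regions and whose ratio to IgG was 3.33. It held 1 Med1 site, chr3:34339653-34345240, of 5588 bp at place 143, which filled 20.4% of its length. That site overlapped 2 of the 3 Carm1 sites and the single Jmjd1c site of the SE. Its printed sequence is the last of the set above. The median SE held 2 Med1 sites.

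The second group lay at the 3′ end around Sox2, whose TSS is 545567 bp from the Sox2ot 5′ end. The 5 Med1 sites there ranged from 1151 to 4727 bp, and the widest 2, chr3:34546331-34551057 and chr3:34551132-34554474, covered Sox2 and its flank. Of the 5, 1 overlapped a Carm1 site and none a Jmjd1c site. No enhancer region of the table lay in this stretch. The study counts Sox2 among the genes near its top SEs.

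The other 4 regions of Sox2ot were small in summed signal. The region ranked 3347 summed to 849.6 for Med1 and 224 for IgG, a ratio of 3.80, and held 1 Med1 site. The regions ranked 3769 and 7092 had ratios of 2.35 and 1.83, and each held 1 Jmjd1c site without Med1. The region ranked 6433, chr3:34468815-34469033, was 219 bp long and held no site, with a Med1 signal of 147 over an IgG signal of 12.47. Its ratio of 11.8, higher than in 93.8% of regions, rests on the smallest IgG signal of the 10.

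**Figure D4:**
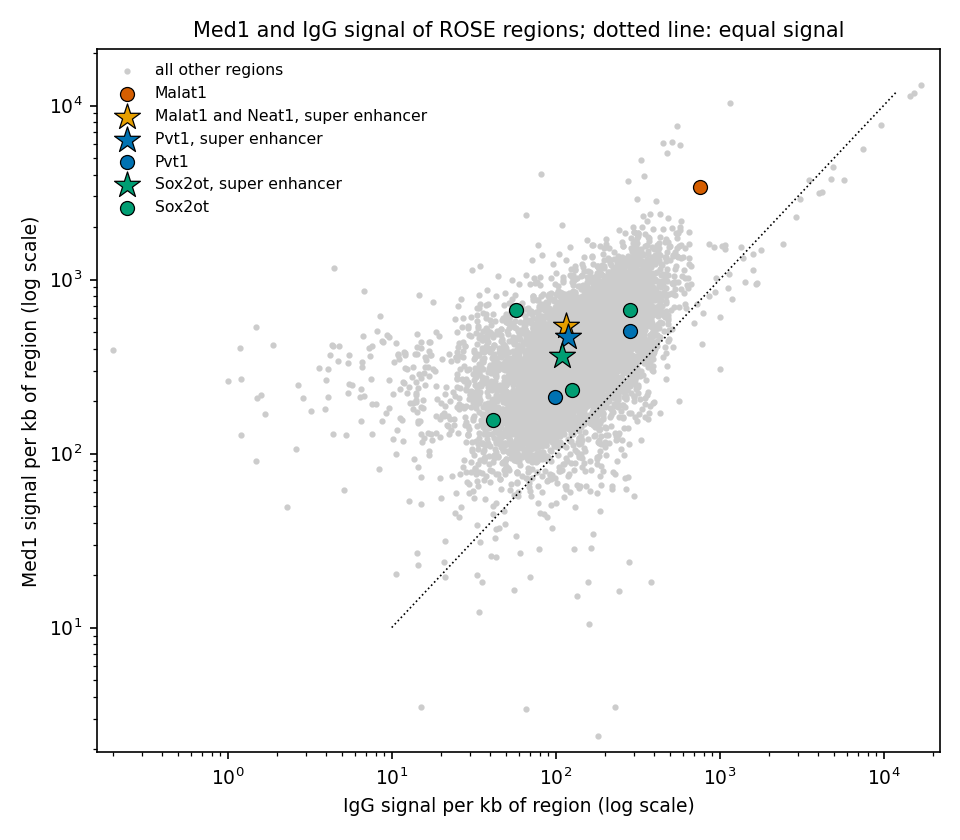
Med1 signal per kb (vertical axis) against IgG signal per kb (horizontal axis), both on log scales, for each enhancer region, with the 10 regions at the long noncoding RNA loci in colour, SEs as stars and equal signal as a dotted line. All 10 lie above the line, the Malat1 region at 3415 for Med1 and 762 for IgG stands farthest to the upper right of the 10, and 301 regions with a signal of 0 are left out.

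Over the 10 regions the median ratio of Med1 to IgG signal was 3.56, against 2.80 over all 8089 regions (quartiles 1.93 and 3.94), and the median IgG signal was 117 per kb against 132. The range over the 10 was from 1.80 to 11.8. Of the 10, 5 held neither a Carm1 nor a Jmjd1c site, against 51.4% of all regions. Of the 16 Carm1 sites at the loci 11 (68.8%, 95% Wilson interval 44.4 to 85.8%) overlapped a Med1 site, against 56.4% of all Carm1 sites. Of the 11 Jmjd1c sites 7 (63.6%, interval 35.4 to 84.8%) did, against 65.8%. The intervals are wide and cover the counting of sites only, as if each site were an independent draw. Most sites in both counts came from a single gene, Pvt1 (Carm1 9, Jmjd1c 7). Both genome-wide shares lie within the intervals, but for these reasons this cannot decide whether the loci differ from the genome. Of the 27 Med1 sites, 7 overlapped both other factors, 2 overlapped Carm1 only and 18 overlapped neither. Over all Med1 sites 12.9% overlapped both and 63.5% neither, so the 18 of 27 were near the share of the whole list.

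Miat (ENSMUSG00000086878.2, chr5:112642248-112657968) had no site and no region within 20 kb. Its nearest sites lay together upstream, 24995 bp away for Med1 (chr5:112682963-112684683), 25337 bp for Jmjd1c and 25406 bp for Carm1, past the crystallin gene Cryba4. Among annotated genes 45.9% were as far or farther from a Med1 site, so this distance was near the middle of the range. On the other side the nearest Med1 site was 450678 bp away.

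Meg3 (ENSMUSG00000021268.10, chr12:110779211-110809936) stood much farther from any site. The nearest Med1 site was 646091 bp away, and 7.27% of all annotated genes and 3.36% of lincRNA and processed transcript genes were as far from one or farther, with the few genes of the Y chromosome, where no Med1 site was listed, counted among them. The nearest Carm1 site was 646632 bp and the nearest Jmjd1c site 455073 bp away, the latter overlapping the nearest enhancer region at 455322 bp. Around Meg3, 1478413 bp held no Med1 site. That stretch contained 91 annotated genes, of which 59 were miRNA genes and 23 snoRNA genes. It included the coding genes Begain, Dlk1, Rtl1 and Dio3 and the RNA genes Rian and Mirg of the imprinted domain. In the same stretch there were 0 Carm1 and 2 Jmjd1c sites and 2 enhancer regions. A list of called sites holds none below its threshold, so the absence of a site here is not a measure of zero occupancy.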

How the data were processed

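ChIP-seq of Med1, Carm1, Jmjd1c and IgG in untreated NS-5 cells was used, with 1 sample for each antibody. Per the submitters' processing notes and the study's methods, reads were mapped by the authors on mm9 (Bowtie 0.12.7), duplicates were removed (Picard 1.81) and sites were called with MACS 1.4.2 against IgG. The deposited site lists hold positions only, and their thresholds could not be settled, so numbers of sites were not compared between factors. The labels of the Carm1 and Jmjd1c lists point to different thresholds. A Carm1 site without a Jmjd1c site can therefore not be read as a difference in occupancy. The authors joined neighbouring regions with Ep300 and H3K27ac peaks by ROSE, leaving out sequence around each TSS, and deposited, for each region, the summed signal of both Med1 and IgG, a read density scaled to mapped reads. Depth is unknown, since the sources used here give no read totals.

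Sites were converted to positions counted from 1 and intersected with GENCODE vM1 genes on NCBIM37, the same build. Genes named are the 6 members, genes within their loci, the coding neighbours Myc and Sox2, and the markers and lncRNAs of fixed lists. Members and lists were chosen with earlier results of these data known. Windows for motifs were read from the reference genome. The alternatives changed the flank, the overlap, the TSS width, the number of Med1 sites and the ranking signal. Functions were tested on simulated data, where 5 of 5 checks were met. Tables were handled in pandas 2.3.3 and numpy 2.4.6 under Python 3.11.15, intervals came from scipy 1.17.1, sequences were read by pysam 0.24.0 and plots drawn by matplotlib 3.10.9.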

Additional observations from a re-analysis of the deposited data

How the results depend on the processing

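Of 51 alternative values, 46 stayed within 1.5 times the main one or within its interval. With the first 5000 Med1 sites alone, the loci held 11 Med1 sites in place of 27. With 50 kb on either side, 5 loci in place of 3 had all 3 factors, since Malat1 then reached the Jmjd1c site of Neat1 and Miat reached its upstream sites. With the 5′ end of the gene as the only TSS, 1 gene (Neat1) in place of 3 had a Med1 site at its TSS. Ranked by Med1 minus IgG signal per kb, 1 region, that past the Malat1 3′ end, in place of 3 was among as many top regions as there are SEs. With midpoints within 200 bp, 25% of the Carm1 sites met a Med1 site in place of 68.8% and 36.4% of the Jmjd1c sites in place of 63.6%, and the wide Med1 sites of Malat1 and Neat1 are among those lost. No share over all sites or all genes under the changed rules is set beside these values, so a change may not be particular to the loci. No paired analysis was possible because each antibody had 1 sample and no result comes from a test. Depth is unknown, so a site just under a threshold cannot be told from no occupancy.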

Other observations

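Of 31 other long noncoding RNA names in a list, 24 were matched to the annotation. A Med1 site lay at the locus of 16 of the 24, a Carm1 site at 8 and a Jmjd1c site at 6, and 8 had no site of any factor. Over all lincRNA and processed transcript genes the shares were 54.9%, 28.1%, 26.2% and 38.2%, and no difference from them was tested. Sites of all 3 factors were found at 5 of the 24, against 13.7% of lincRNA and processed transcript genes, namely at Ftx, Rmst, Dleu2, Mir22hg and Mir9-3hg. An SE lay at 2 of the 24, against 3.04% of lincRNA and processed transcript genes. Ftx, an RNA of the X-inactivation centre, had 6 Med1, 2 Carm1 and 1 Jmjd1c sites and an SE, and Mir9-3hg, a host gene of the neural miRNA miR-9, had 6, 2 and 2 and an SE. Firre, an X-linked nuclear RNA, had 13 Med1 sites with 1 Carm1 and 0 Jmjd1c sites. The 8 without a site were H19, Hotair, Hottip, Dlx6os1, Six3os1, Mir124a-1hg and, along the imprinted domain of Meg3, Rian and Mirg. Other imprinted RNAs did have sites, with 6 Med1 and 1 Carm1 sites and 2 enhancer regions at Airn and 1 Med1 site, at a TSS, at Nespas.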
